A study of Homo sapiens with 4 samples.

Results

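ABC transporters are membrane pumps and related proteins that share an ATP-binding cassette, and they were followed here as 42 genes, chosen because their platform symbol is ABC plus a letter from A to G and a number. They are 42 of the 18132 genes that the deposited table could name, and they were read on 125 probe sets, with the probe set of highest mean over the 4 arrays standing for each gene. This rule reads symbols and mean signal, although the family was picked with earlier results of these data known. The RNA came from U87MG, an established human glioblastoma line, grown at 0.2% oxygen and harvested 48 hours after transfection. In 2 cultures the vector carried NeuroD2, a neurogenic basic helix-loop-helix transcription factor, and in the other 2 it was the PCMV control vector without it. Human PrimeView arrays with biotin-labelled RNA gave 1 profile per culture. The promoter that drives NeuroD2 is not given in the labels. The 2 arrays of a group are labelled biological replicates, and since nothing tells how their cultures were kept apart, a p-value here measures the spread among these 4 samples.

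An ABC transporter couples ATP hydrolysis in paired cassettes to the movement of a substrate across a membrane. Subfamily A and several members of subfamily G move sterols and phospholipids, subfamilies B, C and G contain the pumps that expel drugs from tumour cells, and subfamily D serves peroxisomes and lysosomes. ABCC8 and ABCC9 are exceptions that gate potassium channels, and the proteins of subfamilies E and F have no membrane part and act on ribosomes. In glioblastoma the family is known above all for drug efflux by ABCB1, ABCC1 and ABCG2, which also sit at the blood-brain barrier.

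Sequence upstream of the transcription start is shown for ABCC9, which had the largest difference of the family, for ABCA12, which came next after the genes that passed the test, and for ABCG5 and ABCG8, which are transcribed head to head. NeuroD factors bind with E proteins to the E box CANNTG, and capitals mark that motif. The sequences are from RefSeq on GRCh38.p14, 5′ to 3′ on the strand given. They cover the 250 bases before the ABCC9 start (chr12:21941427-21941676, minus strand), the 250 bases before the most upstream of the listed ABCA12 starts (chr2:215138627-215138876, minus strand) and the 131 bases between the ABCG5 and ABCG8 starts (chr2:43838840-43838970, plus strand).
ABCC9: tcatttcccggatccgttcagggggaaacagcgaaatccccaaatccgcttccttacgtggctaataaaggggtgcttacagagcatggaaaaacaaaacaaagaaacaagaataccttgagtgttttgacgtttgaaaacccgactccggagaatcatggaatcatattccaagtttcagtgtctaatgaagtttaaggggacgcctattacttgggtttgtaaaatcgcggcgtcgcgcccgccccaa
ABCA12: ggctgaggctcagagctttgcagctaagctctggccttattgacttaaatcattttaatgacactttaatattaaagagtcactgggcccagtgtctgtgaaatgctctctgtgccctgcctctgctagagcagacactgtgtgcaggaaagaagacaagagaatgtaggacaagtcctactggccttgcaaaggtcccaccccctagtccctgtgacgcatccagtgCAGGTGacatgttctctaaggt
ABCG5-ABCG8: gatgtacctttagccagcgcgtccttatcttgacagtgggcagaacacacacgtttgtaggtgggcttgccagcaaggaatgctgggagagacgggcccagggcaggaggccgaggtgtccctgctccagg
The ABCC9 stretch held no CANNTG. The ABCA12 stretch held 1, CAGGTG, which begins 22 bases before the start. The interval that ABCG5 and ABCG8 share held none.

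Promoter windows (250 bases before to 50 after a start) were listed for 33 of the 42 genes, as 50 windows. CANNTG, searched on both strands, occurred in 35 of these windows (70%), against 68.7% of all 35116 RefSeq windows. The narrower forms CAGCTG and CAGATG, both contained in CANNTG, occurred in 11 (22%) and 9 (18%) of the ABC windows, against 17.9% and 14.7% of all windows. At the level of these letters the ABC promoters were thus close to promoters in general. No entry was listed for ABCC1.

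NEUROD2 itself read 7.37 and 7.82 on the NeuroD2 arrays, against 5.46 and 5.35 on the control arrays (deposited log2 values, brightest of 3 probe sets). Averaged over its 3 probe sets the difference was only 0.64, so the others together did not rise. On the brightest probe set, on which this reading of the vector rests, the difference was 2.19 (standard error 0.15, limma adjusted p = 0.00440). It was 2.25 and 2.14 without control replicate 1 and 2, settings in which 0 of all 18132 genes passed limma's adjusted threshold, so a lost call there says nothing about a gene (9 and 8 of the 42 ABC genes had an unadjusted p below 0.05). The U87MG label was set against glioma markers: VIM averaged 14.14 ± 0.01 with the NeuroD2 vector and 14.15 ± 0.04 with the control vector, CD44 12.85 ± 0.01 and 12.83 ± 0.13, and SOX2 4.60 ± 0.18 and 4.47 ± 0.16 (SD, n = 2 each). SOX2 thus averaged less than the leukocyte marker CD3E (5.08 with the NeuroD2 vector and 5.29 with the control vector). Of the 7 glioma markers 1 changed, CHI3L1, which fell by 0.51 (limma adjusted p = 0.0383). GFAP and S100B differed by 0.24 and 0.18 with separate groups and NES by -0.25 with overlap, none of them passing. Of 12 measured markers of leukocytes, endothelium, epithelium and neurons, only the neuronal gene SNAP25 changed (-0.59, limma adjusted p = 0.0312). The 3 neuronal markers summed, on the linear scale, to 356 and 359 on the NeuroD2 arrays, against 488 and 531 on the control arrays. Beside SNAP25, SYT1 differed by -0.45, while RBFOX3 differed by 0.08 with overlapping groups. The part of these markers in the results was not tested. In bulk RNA, fewer cells expressing a gene and less RNA per cell cannot be told apart. Hybridisation spikes averaged 10.10 and 10.13 on the NeuroD2 arrays, against 9.56 and 9.90 on the control arrays. Poly-A spikes averaged 7.96 and 8.03 on the NeuroD2 arrays, against 6.95 and 7.98 on the control arrays. The part of the spikes in the results was not tested.

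With the NeuroD2 vector, 2 of the 42 ABC genes rose, 0 fell and 40 did not pass limma's test at an adjusted p of 0.05. The genes that rose were ABCC9, the regulatory subunit SUR2 of ATP-sensitive potassium channels, and ABCC1, the multidrug resistance protein MRP1. A share of 4.76% of the family was thus called, against 4.77% of all genes tested, so the family was called at the rate of the whole array. Among all genes, 1.81% were called higher and 2.96% lower.

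**Figure D1:**
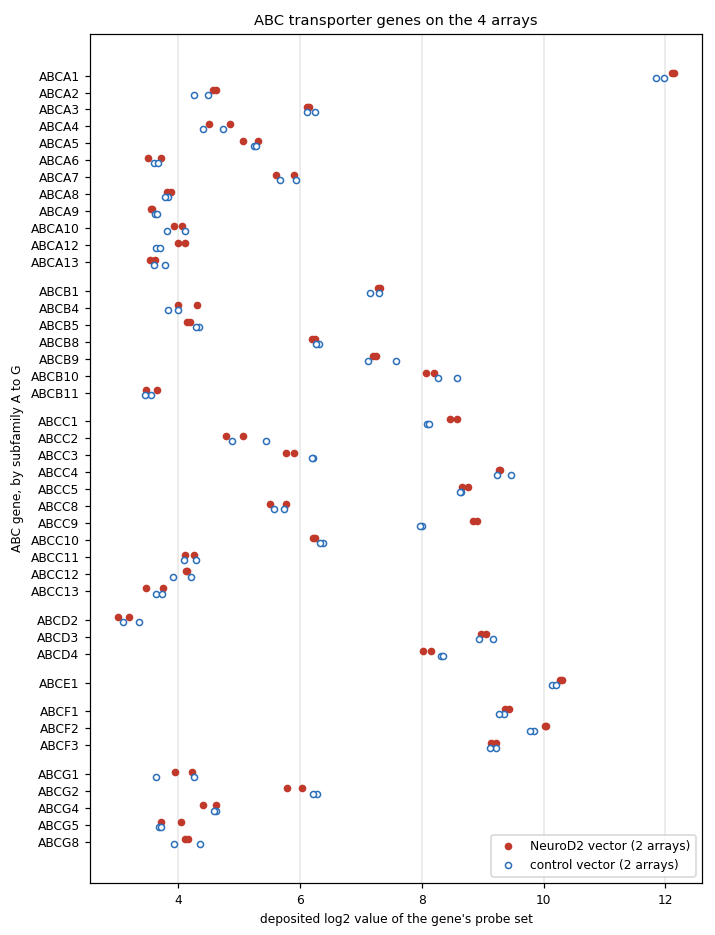
Deposited log2 values (x axis) of the 42 ABC genes (rows, grouped by subfamily A to G). Filled points are the 2 NeuroD2 arrays and open points the 2 control arrays; ABCC9 and ABCC1 show the filled points clear to the right of the open ones, while points of most other genes lie close together.

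The family's differences were small. Over the 42 genes the median log2 difference was -0.01, against 0.00 over all genes, and the median absolute difference was 0.10, against 0.11 over all genes. At an unadjusted p below 0.05 there were 5 higher and 3 lower ABC genes (19.0%), against 9.27% higher and 12.5% lower among all genes (21.8%). Groups of arrays did not overlap for 17 ABC genes (40.5%), 9 higher and 8 lower, against 24.2% higher and 26.6% lower among all genes (50.8%). The unadjusted 95% interval of the difference lay inside -1 to 1 for 41 of the 42 genes, the exception being ABCC9, and inside -0.5 to 0.5 for 32 of them (76.2%, against 82.0% of all genes). In this range a difference that missed the test is not shown to be absent: the median half-width of these intervals was 0.24.

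**Figure D2:**
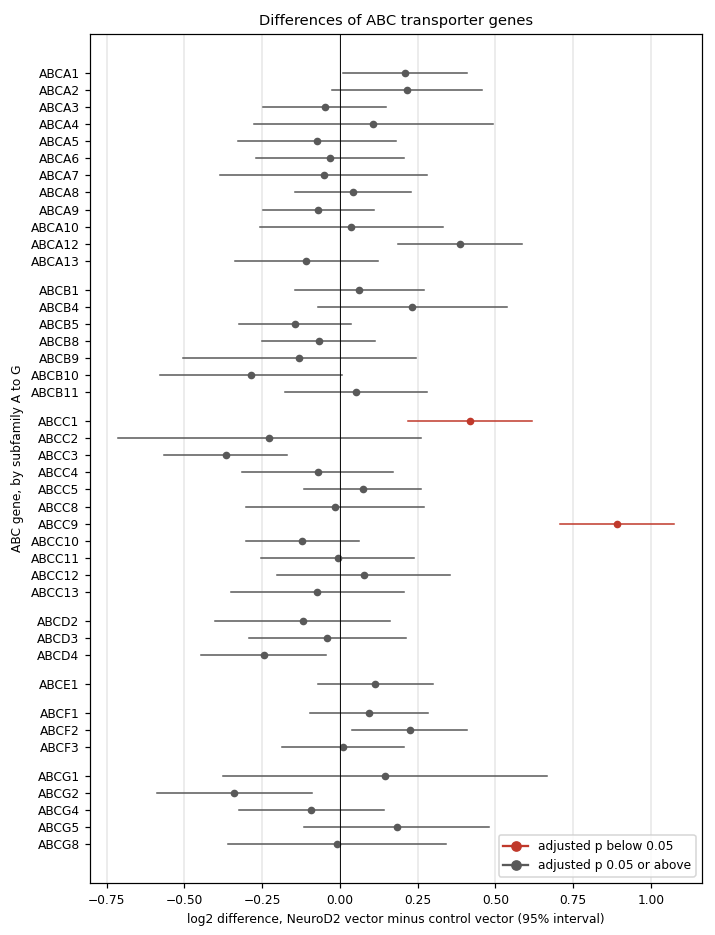
Log2 difference (NeuroD2 vector minus control vector) with its unadjusted 95% interval for each of the 42 ABC genes, by subfamily. Red marks the 2 genes with an adjusted p below 0.05, ABCC9 at 0.89 and ABCC1 at 0.42; the other 40 lie between -0.37 and 0.39.

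Subfamily C held both genes that rose. ABCC9 read 8.91 and 8.84 on the NeuroD2 arrays, against 8.002 and 7.97 on the control arrays. Both NeuroD2 arrays stood well above both control arrays, and the gap between the arrays of a group was small beside the gap between groups. The difference was 0.89 (standard error 0.07, 95% interval 0.71 to 1.07), which is 1.85-fold (1.63 to 2.11), at a limma adjusted p of 0.00713. On the second-brightest of its 3 probe sets ABCC9 read 6.98 and 6.85 on the NeuroD2 arrays, against 6.41 and 6.47 on the control arrays (difference 0.48, adjusted p = 0.0490 when every probe set was tested). The dimmest probe set gave -0.01, with values between 3.07 and 3.20 on all arrays, so the average of the 3 probe sets differed by only 0.45 (adjusted p = 0.0152). With any one array left out its difference lay between 0.85 and 0.93. It did not pass without NeuroD2 replicate 1 or 2 (adjusted p = 0.0710 and 0.0568), where 57 and 66 of all genes did.

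The SUR2 protein works as a complex with a pore subunit, encoded by KCNJ8 or KCNJ11, and both were examined after the ABCC9 values were seen. KCNJ8 read 3.62 and 3.77 on the NeuroD2 arrays, against 3.70 and 3.71 on the control arrays (difference -0.01, limma adjusted p = 0.967). KCNJ11 read 6.44 and 6.37 on the NeuroD2 arrays, against 6.45 and 6.33 on the control arrays (0.02, adjusted p = 0.952). Neither pore gene separated the groups. ABCC8, which encodes SUR1, the relative of SUR2 in pancreatic beta cells and neurons, differed by -0.02 (95% interval -0.30 to 0.27).

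ABCC1 exports glutathione conjugates, leukotriene C4 and several anticancer drugs. It read 8.46 and 8.59 on the NeuroD2 arrays, against 8.09 and 8.12 on the control arrays. The groups did not overlap, and the difference was 0.42 (standard error 0.08, 95% interval 0.22 to 0.62), which is 1.34-fold (1.16 to 1.53). At a limma adjusted p of 0.0482 ABCC1 lay just inside the threshold. All 3 of its probe sets were higher with the NeuroD2 vector, by 0.42, 0.38 and 0.31. The call was lost with the replicate number as a block (adjusted p = 0.0769), with a robust prior (0.0521), when every probe set was tested (0.0647) and without NeuroD2 replicate 1 or 2 (0.223 and 0.326). The ABCC1 difference lay between 0.35 and 0.48 with any one array left out.

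ABCC3, an organic anion exporter known from liver and gut, was named after its values were seen because it lay just outside the threshold in the other direction. It read 5.91 and 5.78 on the NeuroD2 arrays, against 6.22 and 6.20 on the control arrays (-0.37, standard error 0.08, limma adjusted p = 0.0633). Both NeuroD2 arrays were below both control arrays, and the second probe set differed by -0.59 (adjusted p = 0.0405 among all probe sets). Averaged over its probe sets, ABCC3 gave -0.48 at an adjusted p of 0.0146. ABCC2, the exporter of bilirubin conjugates into bile, differed by -0.23 on its brightest probe set (adjusted p = 0.577), where the control arrays read 5.45 and 4.88 and were far apart. Its second probe set read 4.58 and 4.68 on the NeuroD2 arrays, against 5.25 and 5.24 on the control arrays, a difference of -0.61 that passed among all probe sets (adjusted p = 0.0267). The result for ABCC2, also picked after its values were seen, thus depended on which probe set was read.

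The cyclic nucleotide exporter ABCC5, chosen afterwards as well, had probe sets of opposite sign. Its brightest probe set read 8.66 and 8.76 on the NeuroD2 arrays, against 8.64 and 8.63 on the control arrays (0.07). The second read 7.26 and 7.08 on the NeuroD2 arrays, against 7.65 and 7.64 on the control arrays (-0.48, limma adjusted p = 0.0576 among all probe sets), and the other 2 differed by 0.10 and 0.04. That second probe set has the suffix s_at, a kind that can match more than 1 transcript, and so do the brightest probe sets of ABCC9 and ABCC1. The remaining members of the subfamily are ABCC4, an exporter of cyclic nucleotides and prostaglandins, ABCC10, ABCC11, ABCC12 and the transcribed pseudogene ABCC13. Their differences lay between -0.12 and 0.08.

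**Figure D3:**
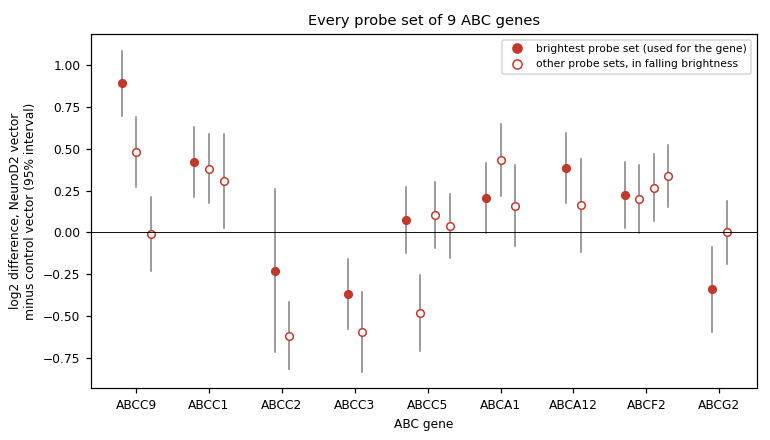
Log2 difference (NeuroD2 vector minus control vector, y axis, with unadjusted 95% intervals) of every probe set of 9 ABC genes, brightest first within a gene. The 3 probe sets of ABCC1 and the 4 of ABCF2 all lie above 0 and both of ABCC3 below it, whereas ABCC9 has 1 probe set at -0.01 and ABCC5 has 1 at -0.48 beside 3 above 0.

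Across the family, 36 of the 42 genes had more than 1 probe set. All probe sets of a gene were higher with the NeuroD2 vector for 8 genes, all lower for 8 and mixed in sign for 20. When the 125 probe sets were tested among all 44988 with 1 symbol, 4 passed (3.20%, against 3.03% of all): 2 of ABCC9 higher, and 1 each of ABCC2 and ABCC3 lower.

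Of the 12 genes of subfamily A, which move lipids, 0 passed limma's test and 2 had an unadjusted p below 0.05, both higher. These 2 are 16.7% of the subfamily, against 21.8% of all genes in either direction. ABCA12, which loads lipids into the lamellar granules of skin, read 3.999 and 4.11 on the NeuroD2 arrays, against 3.64 and 3.70 on the control arrays. The groups were separate (0.39, standard error 0.08, 95% interval 0.19 to 0.58), and the limma adjusted p was 0.0569. ABCA12 lay below the median gene of the array, at readings like those of some markers of other cell types. The leukocyte marker PTPRC read 3.45 and 3.53 on the NeuroD2 arrays, against 3.23 and 2.95 on the control arrays. The PTPRC groups were separate too (0.40, limma adjusted p = 0.112), while those of CD14 overlapped (0.05) and CD3E was lower (-0.21). Whether the ABCA12 difference stands clear of background was not tested. The second ABCA12 probe set read 4.07 and 3.79 on the NeuroD2 arrays, against 3.79 and 3.75 on the control arrays, a difference of 0.16 carried by 1 array. ABCA1, the exporter of cholesterol and phospholipid to apolipoprotein A-I, read 12.14 and 12.10 on the NeuroD2 arrays, against 11.85 and 11.98 on the control arrays (0.21, 95% interval 0.01 to 0.41, adjusted p = 0.213). All 3 ABCA1 probe sets were higher, the second by 0.43 (adjusted p = 0.0649 among all probe sets). ABCA12 and ABCA1 both passed when the prior variance was allowed to follow intensity (adjusted p = 0.0495 and 0.0433).

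ABCA2, a lysosomal lipid transporter of the nervous system, read 4.58 and 4.62 on the NeuroD2 arrays, against 4.50 and 4.27 on the control arrays (0.22, limma adjusted p = 0.276). The groups did not overlap, but the control arrays were as far apart as the groups. The other 9 members, among them the surfactant gene ABCA3, the retinal gene ABCA4 and the Alzheimer risk gene ABCA7, differed by -0.11 to 0.11. Their dimmer probe sets did not all follow: the second of ABCA7 differed by -0.47 and the second of ABCA3 by -0.34, both with separate groups (limma adjusted p = 0.0656 and 0.241 among all probe sets). ABCA5, ABCA6, ABCA8, ABCA9 and ABCA10 form an unbroken run on chromosome 17 and differed by -0.07 to 0.04. These relatives are similar in sequence, so their probe sets can share signal.

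Subfamily B, with 7 measured genes, had 0 calls and 0 genes at an unadjusted p below 0.05 by limma. Over all genes these shares were 4.77% and 21.8%. ABCB1, which encodes the drug pump P-glycoprotein, read 7.31 and 7.28 on the NeuroD2 arrays, against 7.31 and 7.16 on the control arrays. The arrays overlapped, and the difference of 0.06 had a 95% interval of -0.15 to 0.27, or 0.904-fold to 1.21-fold (adjusted p = 0.738). Of the 4 ABCB1 probe sets, 2 differed from each other by 2.44 on every array, within 0.001, so they are no independent readings. ABCB4, its neighbour on chromosome 7 and the phospholipid translocator of bile, read 4.01 and 4.31 on the NeuroD2 arrays, against 4.01 and 3.84 on the control arrays (0.23, adjusted p = 0.343). ABCB10, a transporter of the inner mitochondrial membrane, read 8.07 and 8.20 on the NeuroD2 arrays, against 8.27 and 8.57 on the control arrays. Both NeuroD2 arrays lay below both control arrays, and the control arrays were the further apart (-0.29, 95% interval -0.58 to 0.01, adjusted p = 0.240). The melanoma-associated gene ABCB5, the mitochondrial ABCB8, the lysosomal peptide transporter ABCB9 and the bile salt pump ABCB11 differed by -0.15 to 0.05.

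Subfamily G had 0 calls among 5 genes by limma and 1 gene at an unadjusted p below 0.05, ABCG2. That is 20% of the subfamily, against 21.8% of all genes. ABCG2, the breast cancer resistance protein that marks side-population cells, read 5.80 and 6.03 on the NeuroD2 arrays, against 6.29 and 6.22 on the control arrays. The NeuroD2 arrays were the lower ones (-0.34, 95% interval -0.59 to -0.09, adjusted p = 0.126), and the second probe set showed no difference (0.00), with values of 4.58 to 4.61. ABCG1, which passes cholesterol to high-density lipoprotein, read 4.23 and 3.95 on the NeuroD2 arrays, against 4.26 and 3.63 on the control arrays, with full overlap (0.14, adjusted p = 0.762). ABCG5 and ABCG8 form the obligate sterol exporter of gut and liver and share the short interval printed above. ABCG5 read 4.05 and 3.71 on the NeuroD2 arrays, against 3.68 and 3.71 on the control arrays (0.18, adjusted p = 0.448), a difference carried by 1 array. ABCG8 differed by -0.01, and ABCG4, a sterol transporter of brain, by -0.09.

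The 3 drug pumps known best in glioblastoma did not move as one. ABCC1 rose by 0.42, ABCB1 differed by 0.06 and ABCG2 by -0.34, and of these only ABCC1 passed; no test was made between the genes.

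Subfamily D had 0 calls among 3 genes by limma, and 1 at an unadjusted p below 0.05, ABCD4. With only 3 genes this is 33.3%, against 21.8% of all genes. ABCD4, which moves cobalamin out of lysosomes, read 8.16 and 8.03 on the NeuroD2 arrays, against 8.32 and 8.36 on the control arrays (-0.24, 95% interval -0.45 to -0.04, adjusted p = 0.160). The groups did not overlap on that probe set, while the other 2 probe sets gave -0.12 and 0.16. ABCD2, a peroxisomal fatty acid transporter, read 3.20 and 3.02 on the NeuroD2 arrays, against 3.35 and 3.11 on the control arrays (-0.12, adjusted p = 0.613), with overlap. ABCD3, which imports branched-chain acyl-CoA into peroxisomes, differed by -0.04, and all 5 of its probe sets were lower.

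Subfamilies E and F, the members without a membrane part, were all on the higher side, with 0 of 4 called by limma. Of all genes 4.77% were called. ABCE1, which splits ribosomes after termination, read 10.30 and 10.27 on the NeuroD2 arrays, against 10.14 and 10.21 on the control arrays (0.11, adjusted p = 0.446). The groups did not overlap there, but the other 4 ABCE1 probe sets differed by -0.04 to 0.04. ABCF2 read 10.02 and 10.04 on the NeuroD2 arrays, against 9.85 and 9.77 on the control arrays (0.22, 95% interval 0.04 to 0.41, adjusted p = 0.160), and its 4 probe sets were all higher, by 0.20 to 0.34. ABCF2 passed among genes at or above the median gene (adjusted p = 0.0476) and with an intensity trend (0.0463). ABCF1, which acts with initiation factor eIF2, read 9.36 and 9.43 on the NeuroD2 arrays, against 9.34 and 9.26 on the control arrays (0.09, adjusted p = 0.555). The groups barely separated for ABCF1, and ABCF3 differed by 0.01, a value that changed sign when single arrays were left out.

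Of the 42 genes, 14 lay at or above the median gene of the array, and these held both genes that passed. Over the whole array 7.74% of genes at or above the median gene passed, and 1.79% of those below it. The median difference was 0.07 in these 14 and -0.04 in the 28 dimmer ones. No detection calls were used, so no gene was called absent.

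**Figure D4:**
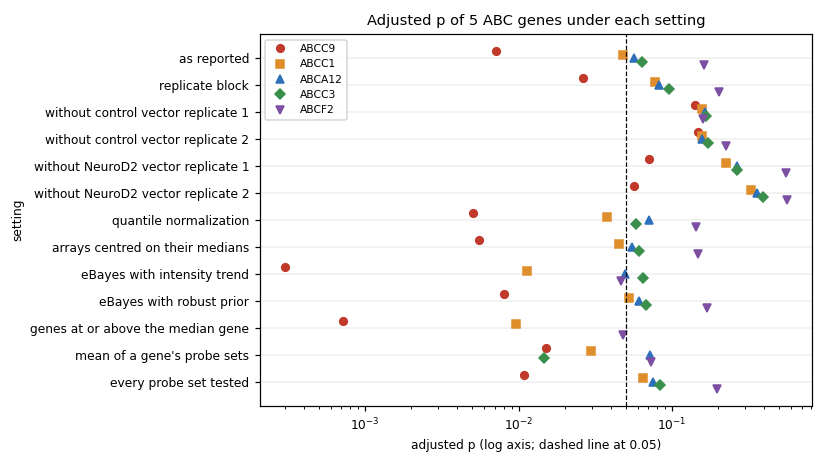
Adjusted p (log axis) of 5 ABC genes under the reported fit and 12 alternatives, with a dashed line at 0.05. ABCC9 lies left of the line except where 1 array is left out, ABCC1 moves across it, and the other 3 genes lie to its right in the reported fit.

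Genes that work with ABC transporters were taken from 7 lists of 88 genes, of which 79 were measured. By limma 2 of them rose and 4 fell (7.59% called, against 4.77% of all genes), and 73 did not pass. The called ones all lay at or above the median gene of the array, where 7.74% of genes passed. The 7.59% also counts dimmer partner genes such as CFTR, so these 2 shares rest on unlike sets. The share called among the brighter partner genes alone was not computed. In the cholesterol efflux list 1 of 14 fell (7.14%, against 4.77% of all genes). This was LPCAT3, an enzyme that places polyunsaturated fatty acids in membrane phospholipids. LPCAT3 read 8.21 and 8.24 on the NeuroD2 arrays, against 8.95 and 8.98 on the control arrays (-0.74, adjusted p = 0.0102). The groups were far apart relative to their spread, although its probe sets on average differed by only -0.46. NR1H3, which encodes a liver X receptor that induces ABCA1 and ABCG1, differed by -0.13, and the ABCA1 ligand genes APOE and APOA1 by 0.15 and 0.11, none of them passing.

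Among 9 regulators of drug pumps 1 rose (11.1%, against 4.77% of all genes). That was EPAS1, the gene of hypoxia-inducible factor 2 alpha. It read 11.81 and 11.89 on the NeuroD2 arrays, against 11.39 and 11.43 on the control arrays (0.44, limma adjusted p = 0.0382). HIF1A differed by -0.01 and NFE2L2, the gene of the antioxidant regulator NRF2, by 0.04. Of 12 genes of glutathione synthesis and conjugation, whose products MRP1 exports, 2 fell and 0 rose (16.7% called, against 4.77% of all genes). GSTA4, a transferase for lipid peroxidation products, read 8.10 and 8.12 on the NeuroD2 arrays, against 8.52 and 8.66 on the control arrays (-0.48, adjusted p = 0.0370). MGST2, a membrane-bound transferase that can make leukotriene C4, read 8.18 and 8.27 on the NeuroD2 arrays, against 8.75 and 8.71 on the control arrays (-0.51, adjusted p = 0.0277). The list as a whole did not lean that way: 7 of its 12 genes had a positive difference and 5 a negative one. In it 4 were higher and 3 lower at an unadjusted p below 0.05 by limma (58.3%, against 21.8% of all genes). GCLM, the regulatory subunit of the first enzyme of glutathione synthesis, had the largest positive difference (0.38, adjusted p = 0.0703). With the replicate block EPAS1, GSTA4 and MGST2 did not pass (adjusted p = 0.0694, 0.0663 and 0.0627). EPAS1 also missed the threshold when every probe set was tested (0.0514).

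In the list for mitochondrial haem and iron-sulfur clusters, which ABCB10 and its relatives serve, 1 of 14 rose and 1 fell. SLC25A37, the mitochondrial iron importer mitoferrin 1, which ABCB10 binds in mouse erythroid cells, read 9.86 and 9.86 on the NeuroD2 arrays, against 9.23 and 9.33 on the control arrays (0.58, limma adjusted p = 0.0201). ALAD, the second enzyme of haem synthesis, read 7.95 and 8.01 on the NeuroD2 arrays, against 8.55 and 8.64 on the control arrays (-0.61, adjusted p = 0.0189). Averaged over probe sets, ALAD no longer passed (-0.27, adjusted p = 0.0703). The groups did not overlap for either gene. By limma 0 of 13 genes of peroxisomal fatty acid oxidation passed, and 6 (46.2%) had an unadjusted p below 0.05. Of 14 genes of ribosome recycling and initiation 0 passed, and 1 (7.14%) had an unadjusted p below 0.05. The unadjusted share over all genes was 21.8%. The ABC genes with other symbols, TAP1, TAP2 and CFTR, differed by -0.10, 0.20 and -0.03, with adjusted p-values of 0.201 or more. Without NeuroD2 replicate 1 or 2, 0 of the 6 partner genes that changed passed (adjusted p of 0.0926 to 0.284). With any one array left out, LPCAT3 still differed by -0.76 to -0.72 and SLC25A37 by 0.53 to 0.63.

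**Figure D5:**
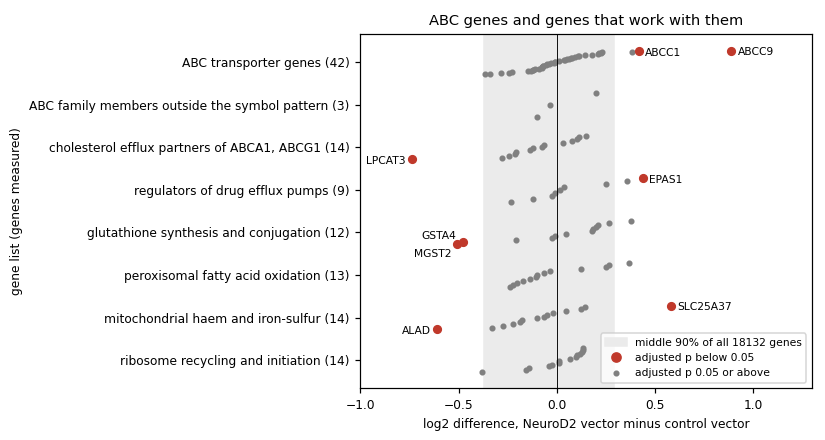
Log2 difference (NeuroD2 vector minus control vector, x axis) of each ABC gene and of each measured gene of 7 partner lists (rows, number measured in parentheses). Red points have an adjusted p below 0.05; the grey band, from -0.37 to 0.29, holds the middle 90% of all genes tested.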

How the data were processed

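Biotin-labelled RNA of 4 U87MG cultures was hybridised to PrimeView arrays, per the labels' protocols. The authors deposited 1 table of 49395 probe sets, read here as log2 values because they run from 2.65 to 14.3 with medians of 5.98 to 5.99; the software and normalization behind them are not stated in the labels, so the scale is inferred. Arrays have no sequencing depth, and their number limits the precision. Of the probe sets, 44988 carried 1 platform symbol; all 42 ABC symbols matched RefSeq (GRCh38.p14). On 6 probe sets an ABC gene shared the annotation with another gene, and these were not used.

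All 18132 genes were fitted with limma 3.58.1 in R 4.3.3 (lmFit, eBayes, group as the only term, two-sided, 2 residual and 3.84 prior degrees of freedom), with Benjamini-Hochberg adjustment over all genes, a threshold of 0.05 and no filter. The fit was tested on simulated data with shifts of 1 log2 unit, larger than any ABC difference found here. Smaller shifts were not simulated. Described with each array's value were genes past the threshold, the 2 members of a subfamily with the largest absolute difference, ABCA1, ABCB1, ABCC1, ABCG1, ABCG2 and ABCE1, and up to 2 called genes per partner list. Alternatives were a replicate block, each array left out, every probe set tested singly, averaged probe sets, only genes at or above the median gene, median-centred or quantile-normalized arrays, and an eBayes prior that was robust or followed intensity. Members, lists and tests were chosen with earlier results of these data known. Figures were drawn with matplotlib 3.10.9.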

Additional observations from a re-analysis of the deposited data

How the results depend on the processing

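Of the ABC genes, 2 were higher with the NeuroD2 vector under quantile normalization, median centring and the mean of probe sets, and 3 among genes at or above the median gene. Called in either direction there were 4.76%, 4.76%, 7.14% and 21.4% of the ABC genes, against 5.3%, 5.12%, 6.55% and 23% of all genes tested. The number higher was 1 with the replicate block and 1 with a robust prior (ABCC9 in both). That is 2.38% of the family in each, against 1.85% and 4.45% of all genes. The number higher was 5 with an intensity trend (ABCC9, ABCC1, ABCA1, ABCA12 and ABCF2), where 11.9% of the family and 11.3% of all genes passed. By limma it was 0 to 0 when any single array was left out (6 to 9 at an unadjusted p below 0.05), but then 0 of all genes passed without either control array, and 57 and 66 without NeuroD2 replicates 1 and 2; the lone array was assumed to vary like the other group. With all 4 arrays and each gene read on its brightest probe set, the number lower was 0 in every setting. With the mean of probe sets it was 1, ABCC3. When every probe set was tested, 1 dimmer probe set each of ABCC2 and ABCC3 was also called lower. The median difference of the family ran from -0.033 to 0.065 when arrays were left out, the highest without control replicate 1, and was 0.068 among genes at or above the median gene. Partner genes higher numbered 1 with the block, 7 with the trend, 6 among brighter genes and 0 to 0 without single arrays; partner genes lower numbered 2, 9, 9 and 0 to 0, beside 1.85%, 11.3% and 23% of all genes called in the first 3 of these settings. When arrays were left out, the direction turned for 21 of the 42 ABC genes, none of which had passed. Among the genes described array by array, ABCC2 ran from -0.51 to 0.056 and ABCD2 from -0.24 to 0.0031 (turned without control replicate 1), ABCB1 from -0.013 to 0.14 and ABCG1 from -0.17 to 0.46 (without control replicate 2), KCNJ11 from -0.043 to 0.074 (without control replicate 2 or NeuroD2 replicate 1) and KCNJ8 from -0.087 to 0.065 (without NeuroD2 replicate 1). With averaged probe sets ABCC5 gave -0.066 and ABCG1 -0.0091. The cause of these changes was not tested. The settings for KCNJ8, KCNJ11, ABCC2, ABCC3, ABCC5, NEUROD2 and the partner genes were added after seeing the data. Same-numbered arrays share only a number in the labels (correlation of their deviations across genes 0.08); with the block, all calls numbered 335 against 864.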
